A study of Mus musculus with 6 samples.

Results

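The genes described here encode the subunits of the proteasome and its regulators, measured in inguinal subcutaneous fat (labelled IWAT) of mice with and without a deletion of Yy1 directed to brown fat. Members were all genes with a probe set annotated to a single gene whose symbol starts with Psma, Psmb, Psmc, Psmd, Psme or Psmf, leaving out Psmb8, Psmb9 and Psmb10, and each gene was represented by its probe set with the highest mean log2(intensity + 1). The rule found 41 of the 12394 genes tested, with 77 probe sets. Of these, 15 belong to the 20S core (8 alpha and 7 beta subunits), 17 to the 19S cap (6 ATPases and 11 other subunits), 3 are chaperones of cap assembly, 3 are activators and 1 is an inhibitor. The other 2 match the symbol rule without being subunits: Psmc3ip, a cofactor of homologous recombination, and Psme3ip1, a protein that binds the activator PSME3. A further probe set named both Psme2 and Psme2b and was not counted as a member.

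The study compared 3 control arrays, from mice with floxed Yy1 alleles (YY1flox/flox), with 3 YY1bKO arrays, from mice with the same alleles and the Ucp1Cre transgene. YY1 is a zinc finger transcription factor, and Ucp1 sequences drive the Cre recombinase mainly in brown and beige adipocytes, which are a part of the cells of this depot. The mice of both groups were 8 weeks old, had a mixed background of C57BL6 and 129, and ate a high fat diet over 2 weeks before sampling. No group with the transgene and without floxed Yy1 is named in the labels, so the transgene and the loss of YY1 cannot be told apart, and nothing states that replicates came from separate animals, so p-values reflect only how far these samples spread, which may be technical.

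The proteasome is the large protease that destroys proteins tagged with ubiquitin. Its 20S core is a barrel of alpha rings, which gate the entrance, and beta rings, which hold the protease sites, and the 19S cap binds the tagged protein, removes the tag, unfolds the chain with its ATPases and feeds it into the core. In brown fat, proteasome activity is needed for thermogenesis, and the transcription factor NFE2L1 is known to raise transcripts of core and cap subunits together when the protease is overloaded. The comparison asks whether subunit transcripts differ in inguinal fat that has high Ucp1.

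Values are log2(intensity + 1), with replicates 1, 2 and 3 in that order and control values set first against YY1bKO values, differences are YY1bKO minus control with a standard error (SE), and p-values are limma's, adjusted over all 12394 genes by the Benjamini-Hochberg method. Differences on this scale understate the change of dim genes. Yy1 gave control values of 10.33, 10.52 and 10.62 and YY1bKO values of 10.13, 10.41 and 10.20, a difference of -0.24 ± 0.12 (adjusted p = 0.574, limma). The groups overlapped, and all 4 probe sets of Yy1 were lower (-0.24 to -0.07). No label places the probe sets inside or outside the deleted part, so these values do not check the deletion. Ucp1, the uncoupling protein of thermogenic adipocytes, gave 5.71, 5.67 and 5.43 against 10.65, 11.01 and 10.91, groups that lie far apart (5.25 ± 0.14, adjusted p = 1.9e-04, limma).

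Marker genes of other cell types differed between arrays. White adipocyte markers were bright in every array, with Adipoq between 15948 and 20045 intensity units, and the summed intensity of the 8 markers measured of 10 ran from 80479 to 103811 in the controls and from 95559 to 102346 in YY1bKO. Skin and mammary epithelium markers (9 of 10 measured) summed to between 267 and 10444 in the controls and between 255 and 493 in YY1bKO, with the highest sum in control replicate 2. That array was the highest of the 6 for 6 of the 9 markers, and not for Krt19, Csn3 and Wap. B cell markers (8 of 9) ran from 402 to 10211 and from 365 to 4995, highest in control replicate 3, and skeletal muscle markers (10 of 10) from 531 to 766 and from 807 to 5390, highest in YY1bKO replicate 1. Of the 10 muscle markers, only Acta1 was higher in every YY1bKO array (log2 values 8.29, 7.51 and 8.22 against 10.62, 9.04 and 10.62). Relative to each gene's mean over the arrays, the 10 markers averaged -0.22, -0.56 and -0.70 in the controls. YY1bKO replicates 2 and 3 lay near these, at -0.70 and -0.61. No marker was listed at 0. In such bulk samples, fewer cells of a type and less RNA per cell cannot be told apart.

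Transcripts of the proteasome were not detectably different between the groups, in the core or in the cap. No member passed an adjusted p of 0.05 by limma, where 0.0323% of all genes did, and the members' adjusted p ran from 0.486 to 0.99. At an unadjusted p under 0.05, 0 of 41 members were higher, where 8.45% of all genes were, and 0 were lower, where 1.99% were, which makes 10.4% in either direction. Without control replicate 2, 3 of 41 members were higher at that unadjusted level (Psmb6, Psmb7 and Psmc1), where 6.79% of all genes were. Without control replicate 3, 2 were lower (Psmc4 and Psme4), against 2.32% of all genes, and without YY1bKO replicate 2, 2 were higher (Psme3 and Psmf1), against 7.26%. None of them passed the adjusted threshold.

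The core had a median log2 difference of 0.01, with 9 of 15 members higher and 6 lower, and single members ran from -0.15 (Psma4) to 0.37 (Psmb7). The cap had a median of 0.05, with 13 of 17 higher and 4 lower, from -0.26 (Psmc4) to 0.29 (Psmc1). Over all genes tested the median was 0.005 with 51.0% higher, and over the 6197 genes above the median brightness, where 14 core and all 17 cap members lie, it was 0.05 with 58.7% higher. The median absolute difference was 0.07 in the core and 0.09 in the cap, against 0.13 over all genes and 0.16 over the brighter ones. Without control replicate 2 the medians were 0.10 for the core and 0.10 for the cap, and without control replicate 3 they were -0.01 and -0.05. The core's median also lay below 0 without control replicate 1 (-0.04) and after quantile normalization of the log2 values (-0.01).

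**Figure D1:**
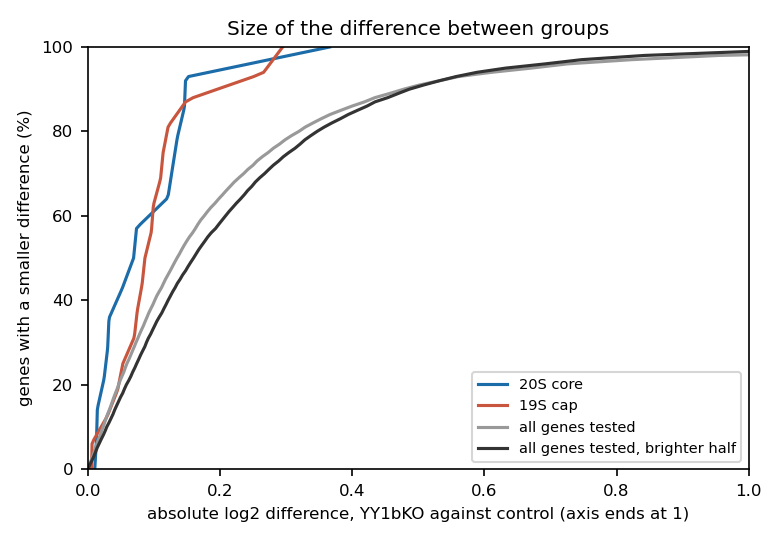
Cumulative share of genes (vertical axis, in percent) by the absolute log2 difference between YY1bKO and control (horizontal axis, ending at 1), for the 20S core, the 19S cap, all genes tested and those above the median brightness. The lines cross 50% at 0.07 (core), 0.09 (cap), 0.13 (all genes) and 0.16 (genes above the median brightness). Where a line reaches 100% is the largest difference in its list, which depends on the number of genes in it.

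The precision of the arrays sets how small a difference could have been missed. The 95% confidence interval of the difference lay within 0.5 log2 units of 0 for 11 of 15 core and 13 of 17 cap members. That limit is a change of 1.41-fold. Intervals lay within it for 51.1% of all genes and for 43.4% of genes above the median brightness. Within 1 log2 unit lay the intervals of all 32 core and cap members, and of 86.4% of all genes. The core members with wider intervals were Psmb7 (-0.06 to 0.79), Psmb5 (-0.55 to 0.29), Psma4 (-0.53 to 0.23) and Psma5 (-0.51 to 0.26), and those of the cap were Psmc1 (-0.03 to 0.62), Psmc4 (-0.60 to 0.07), Psmd7 (-0.33 to 0.57) and Psmd13 (-0.58 to 0.36), a set named here after its values were seen. The number within 0.5 fell to 7 of 15 core members without YY1bKO replicate 2, and to 7 without YY1bKO replicate 3. With control replicate 2 and YY1bKO replicate 1 both left out, it was 9 of 15 core and 7 of 17 cap members, and 1 core member passed beyond 1 log2 unit.

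**Figure D2:**
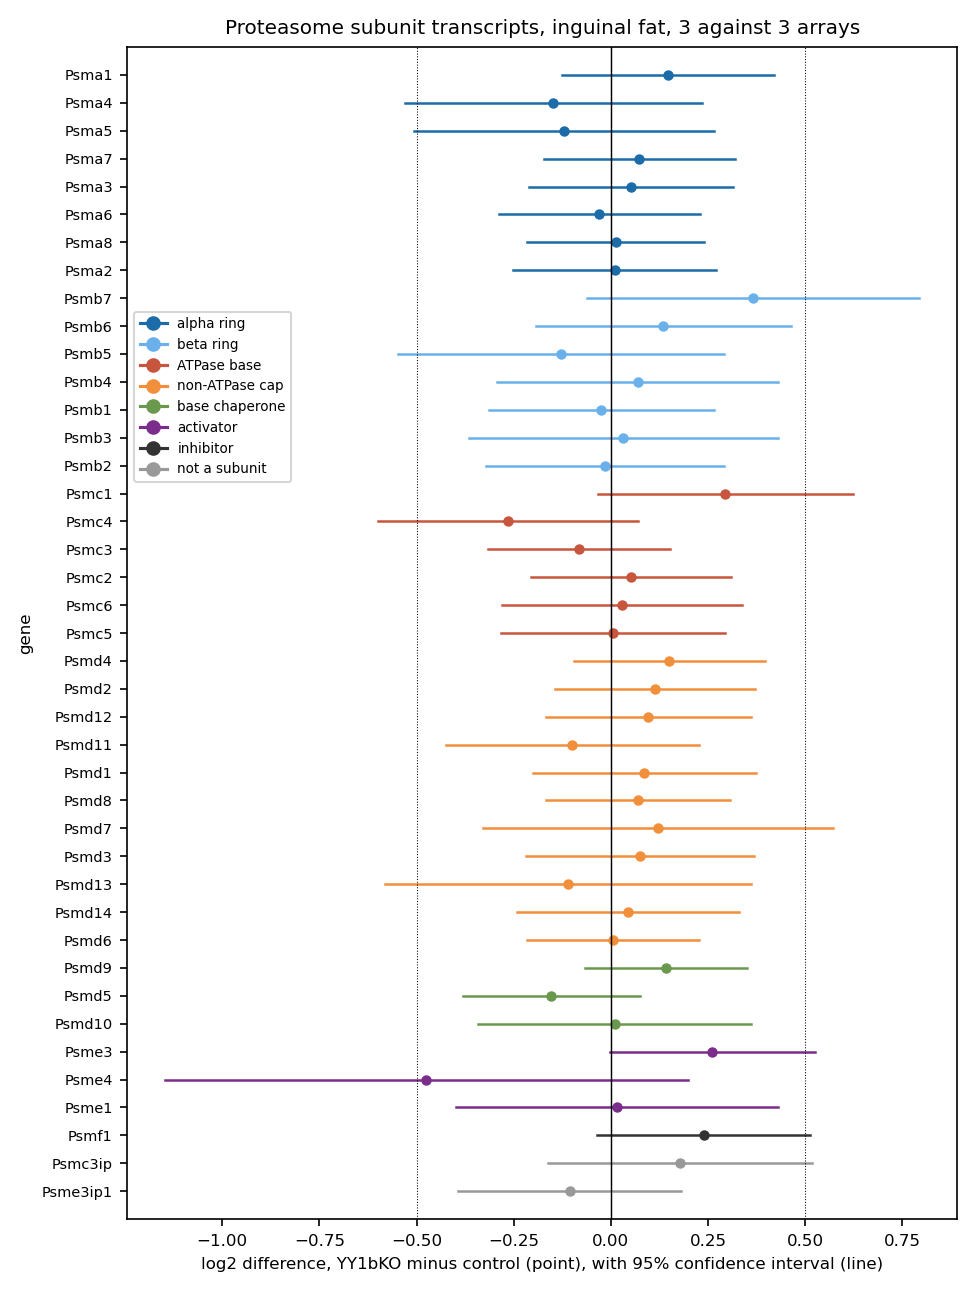
Log2 difference of each of the 41 genes (points, YY1bKO minus control, 3 arrays per group) with its 95% confidence interval (lines), coloured by role, and dotted lines at -0.5 and 0.5. Every interval crosses 0, and that of Psme4 is the widest, from -1.15 to 0.20.

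Among the alpha subunits, which form the outer rings and the gate of the barrel, 5 of 8 were higher and 3 lower, with a median of 0.01. Psma1 gave 10.95, 10.93 and 10.67 against 11.08, 10.95 and 10.96, a difference of 0.15 ± 0.11 (adjusted p = 0.717, limma). Psma4 gave 10.91, 11.42 and 10.99 against 11.06, 10.87 and 10.94, or -0.15 ± 0.16 (0.795). Both overlapped between the groups, and the high value of Psma4 was that of control replicate 2, without which its difference was 0.01. Psma5 gave 11.19, 11.43 and 10.96 against 11.27, 11.03 and 10.92, or -0.12 ± 0.16, with -0.0035 without control replicate 2 and -0.24 without control replicate 3. Psma7 gave 10.57, 10.82 and 10.66 against 10.77, 10.70 and 10.80, or 0.07 ± 0.10. In each of these 2 genes control replicate 2 was the highest of the 6 arrays. The other alpha subunits, Psma2, Psma3, Psma6 and Psma8, had differences between -0.03 and 0.05. Psma8, the alpha subunit of the testis proteasome, was dim, with intensities from 18.7 to 21.3 all under each array's own lower quartile (29.9 to 31.7), so its difference of 0.01 carries little weight.

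Among the beta subunits 4 of 7 were higher and 3 lower, with a median of 0.03. Psmb5, Psmb6 and Psmb7 carry the protease sites of the constitutive core, which cut after hydrophobic, acidic and basic residues respectively. Psmb7 had the largest difference of the core. It gave 9.77, 9.94 and 9.38 against 10.07, 9.89 and 10.23, or 0.37 ± 0.18 (unadjusted p = 0.0815, adjusted p = 0.552, limma). YY1bKO replicate 2 lay below control replicate 2, so the groups overlapped, and the difference ran from 0.20 without control replicate 3 to 0.49 without control replicate 2. Psmb6 gave 10.83, 11.18 and 10.77 against 11.13, 10.97 and 11.10, or 0.14 ± 0.14 (adjusted p = 0.784, limma), and 0.26 without control replicate 2. Psmb5 gave 10.65, 10.97 and 10.36 against 10.42, 10.53 and 10.65, or -0.13 ± 0.17 (0.843), and 0.03 without control replicate 2. None of the catalytic subunits passed the test, and with all arrays Psmb5 differed in sign from the others, which rests on control replicate 2. Psmb4, a structural beta subunit, gave 11.11, 11.60 and 11.16 against 11.36, 11.35 and 11.37, or 0.07 ± 0.15 (0.905). Its YY1bKO arrays lay within 0.024 of each other, while its control arrays spanned 0.493. The structural subunits Psmb1, Psmb2 and Psmb3 had differences between -0.02 and 0.03.

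The cap was described by its ATPase base and its other subunits. The ATPases, a ring that unfolds substrates and opens the core, had a median of 0.02, with 4 of 6 higher. Psmc1 gave 9.33, 9.50 and 9.08 against 9.54, 9.53 and 9.72, or 0.29 ± 0.13 (unadjusted p = 0.0698, adjusted p = 0.524, limma). Every YY1bKO array lay above every control array, by as little as the gap from 9.50 to 9.53, and the second probe set of Psmc1 was too dim to compare, with intensities from 8.7 to 9.4. Psmc4 gave 10.58, 10.55 and 10.17 against 10.27, 10.14 and 10.10, or -0.26 ± 0.14 (0.588). Its groups overlapped through control replicate 3, without which the difference was -0.39, and its other probe set gave -0.01. Psmc3 gave 10.67, 10.80 and 10.66 against 10.54, 10.62 and 10.73, or -0.08 ± 0.10 (0.82). Psmc2 gave 10.998, 11.23 and 11.15 against 11.24, 11.24 and 11.06, or 0.05 ± 0.11 (0.896). These values overlapped, and Psmc5 and Psmc6, the remaining ATPases, had differences of 0.01 and 0.03.

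The non-ATPase subunits of the cap, which hold the ubiquitin receptors, the scaffold and the deubiquitinase, had a median of 0.07, with 9 of 11 higher. Psmd4, a ubiquitin receptor, gave 10.74, 11.003 and 10.90 against 10.996, 11.02 and 11.08, or 0.15 ± 0.10 (adjusted p = 0.68, limma). Control replicate 2 lay just above YY1bKO replicate 1, so the groups overlapped, and its 3 probe sets ran from -0.03 to 0.28. Psmd2, the scaffold of the base, gave 10.76, 11.01 and 10.74 against 10.93, 10.93 and 10.99, or 0.11 ± 0.11 (0.763). Psmd12, a lid subunit, gave 9.83, 9.95 and 9.67 against 9.93, 9.82 and 9.98, or 0.10 ± 0.11 (0.809). In both the YY1bKO arrays lay inside or just above the span of the controls. Psmd11, also of the lid, gave 10.77, 11.21 and 11.03 against 10.96, 10.81 and 10.95, or -0.10 ± 0.13 (0.844), with probe sets from -0.15 to 0.17 when one under every array's lower quartile is left out. Psmd14, the deubiquitinase of the lid, had a difference of 0.04, and Psmd1, Psmd3, Psmd6, Psmd7, Psmd8 and Psmd13 lay between -0.11 and 0.12. Over all members, the probe sets differed in sign in 8 of the 20 that had several, and in 7 of 19 without the 6 probe sets that lay under the lower quartile of every array.

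Chaperones of base assembly were measured beside the subunits and are not part of the finished cap. Psmd9 gave 7.89, 7.75 and 7.79 against 7.92, 7.94 and 7.99, or 0.14 ± 0.09 (adjusted p = 0.642, limma), while its second probe set gave -0.21. Psmd5 gave 8.44, 8.48 and 8.31 against 8.33, 8.25 and 8.19, or -0.15 ± 0.09 (0.645). Psmd10, also called gankyrin, gave 8.23, 7.85 and 8.34 against 8.18, 8.09 and 8.18, or 0.01 ± 0.14 (0.988). The arrays of Psmd9 did not overlap, those of Psmd5 overlapped at the lowest control, and those of Psmd10 overlapped throughout.

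The activators bind the end of the core in place of the cap, and 2 of the 3 were higher and 1 lower, none past the test. Psme4, the large activator PA200 of the nucleus, gave 10.62, 11.37 and 10.27 against 10.26, 10.21 and 10.37, or -0.47 ± 0.28 (adjusted p = 0.63, limma). All 3 of its probe sets were lower (-0.51 to -0.37), but control replicate 2 stood far above the other arrays. The difference was -0.17 without control replicate 2, -0.72 without control replicate 3 and -0.16 with control replicate 2 and YY1bKO replicate 1 both left out. Control replicate 2 was the array with the highest epithelial marker sum, and the part of that tissue in the Psme4 value was not tested. Psme3, the nuclear activator PA28 gamma, gave 7.80, 7.72 and 7.72 against 7.99, 7.86 and 8.17, or 0.26 ± 0.11 (unadjusted p = 0.0522, adjusted p = 0.486, limma), the smallest p among the members. Its groups did not overlap, and 1 of its other probe sets gave 0.09, while the other was too dim to compare. Psme1, the interferon-induced activator PA28 alpha, gave 10.54, 10.81 and 11.14 against 10.73, 10.97 and 10.83, or 0.02 ± 0.17 (0.984). Its highest array was control replicate 3, which had the highest marker sums of B cells, T cells, macrophages and dividing cells. The part of these cells in the Psme1 value was not tested.

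Psmf1 encodes PI31, a protein first described as an inhibitor of the core and later as an adaptor for its transport and assembly. It gave 7.66, 7.65 and 7.65 against 7.86, 7.73 and 8.08, or 0.24 ± 0.11 (unadjusted p = 0.077, adjusted p = 0.544, limma). All YY1bKO arrays lay above all control arrays, and its 4 probe sets were all higher, from 0.12 to 0.28. A pair of its dimmer probe sets reached unadjusted p = 0.0181 and 0.0320 in a limma fit over probe sets. They were the only ones of the 77 member probe sets under 0.05 there. The share of all probe sets under 0.05 in that fit was not computed. In the limma fit over genes, 10.4% of all genes lay under 0.05 in either direction, so this pair is given as values only. With Psmc1, Psmd9 and Psme3, Psmf1 made 4 of 41 members, or 9.76%, whose YY1bKO arrays were all higher, against 11.5% of all genes tested. The reverse held for 0 of 41, against 5.00% of all genes.

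Psmc3ip and Psme3ip1, which are not subunits, gave 6.07, 6.09 and 6.27 against 6.33, 6.10 and 6.54 and 8.71, 8.99 and 9.07 against 8.82, 8.84 and 8.80. Their differences were 0.18 ± 0.14 and -0.11 ± 0.12, neither past the threshold (adjusted p = 0.719 and 0.807, limma). Leaving both out, the remaining 39 members had the same median of 0.03 as all 41.

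Variation between arrays was shared by core and cap and was larger within the controls than between the groups. Relative to each gene's mean over the 6 arrays, the core averaged -0.08, 0.19 and -0.15 (controls) against 0.04, -0.03 and 0.03 (YY1bKO). The cap averaged -0.03, 0.13 and -0.16 against 0.01, -0.03 and 0.07. The SD of these averages was 0.18 over the controls and 0.04 over YY1bKO in the core, where the groups differed by 0.03. Control replicate 1 lay below every YY1bKO array in the core average and just above YY1bKO replicate 2 in the cap average. Control replicate 2 stood highest and control replicate 3 lowest in both, and the YY1bKO arrays lay between them. Control replicate 2 was the highest of the 6 arrays for 12 of 15 core members (80.0%) and 7 of 17 cap members (41.2%), where it was so for 14.3% of all genes, and control replicate 3 was the lowest for 7 core (46.7%) and 12 cap members (70.6%), against 19.1% of all genes. The span of the control arrays was wider than that of the YY1bKO arrays in 14 of 15 core and 16 of 17 cap members, and in 73.9% of all genes. Control replicate 2 had the highest epithelial marker sum (10444, with 6 of 9 markers highest there) and the lowest white adipocyte sum (80479). Control replicate 3 had the highest sums of B cell (10211), T cell (3844), macrophage (16785) and dividing cell (1877) markers. The part of these tissues in the members' values was not tested.

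**Figure D3:**
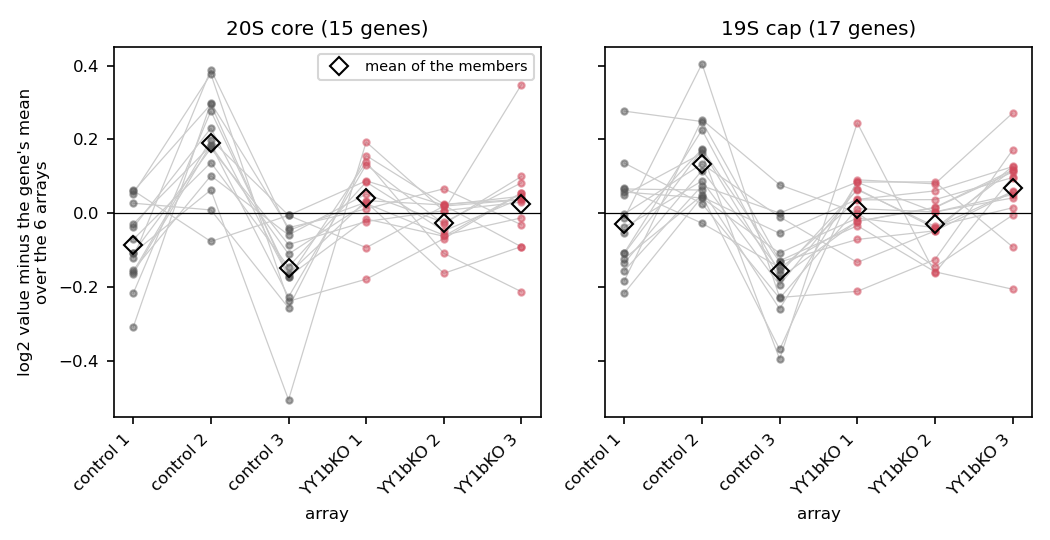
Each member's log2 value minus its own mean over the 6 arrays (vertical axis) by array (horizontal axis), for 15 core genes on the left and 17 cap genes on the right. Dots are genes (grey for control, red for YY1bKO), grey lines join a gene, and open diamonds are the mean of the members, which is highest in control replicate 2 (0.19 and 0.13) and lowest in control replicate 3 (-0.15 and -0.16).

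The inducible catalytic subunits, which replace the constitutive ones in immune cells and under interferon, followed another array. Psmb8 gave 9.81, 10.04 and 11.08 against 10.22, 10.50 and 10.24. Psmb9 gave 9.15, 9.38 and 10.38 against 9.83, 9.81 and 9.54, and Psmb10 gave 9.91, 9.61 and 10.27 against 10.07, 10.01 and 9.97. In all 3, control replicate 3 was the highest array, where Psmb5, Psmb6 and Psmb7 were at their lowest. Their differences between the groups were 0.01 ± 0.33, 0.09 ± 0.33 and 0.08 ± 0.17 (adjusted p = 0.994, 0.948 and 0.9, limma). Of the 7 genes of the immunoproteasome list, which adds the peptide transporter and loading genes Tap1, Tap2, Tapbp and B2m, 6 were higher and 1 lower, with a median of 0.05 and 0 past an unadjusted p of 0.05.

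**Figure D4:**
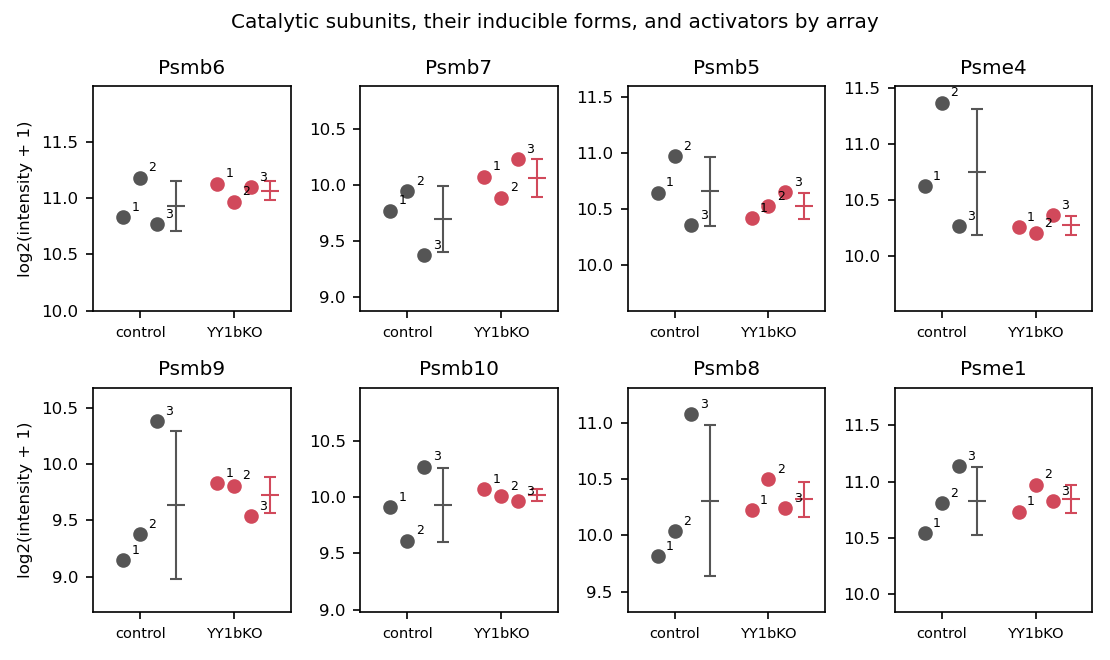
Log2(intensity + 1) by group for the constitutive catalytic subunits and Psme4 (top row) and the inducible subunits and Psme1 (bottom row). Numbered points are arrays, bars beside them are the mean with SD (n = 3), and each panel spans 2 log2 units. Control replicate 3 is the highest array in the 4 lower panels and control replicate 2 is the highest control in the 4 upper ones.

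Other genes of the ubiquitin and proteasome pathway were taken from a list of 41 names, older symbols included, of which 26 were measured. Of these, 13 were higher and 13 lower with a median of -0.00049, and 2 were higher at an unadjusted p under 0.05 (7.69%, where 8.45% of all genes were) while 0 were lower. That share lies near the background, so the 2 genes are given as values only. They were Ngly1, the enzyme that removes sugar chains from NFE2L1 and so enables its activation, and Nfe2l2, the oxidative stress factor NRF2. Ngly1 gave 9.74, 9.71 and 9.62 against 10.01, 9.92 and 9.96, or 0.27 ± 0.09 (adjusted p = 0.36, limma). Nfe2l2 gave 10.29, 10.10 and 10.14 against 10.66, 10.48 and 10.36, or 0.33 ± 0.11 (0.414). Neither overlapped between the groups, and neither passed over all genes. Nfe2l1 itself gave 10.63, 11.02 and 10.54 against 10.76, 10.69 and 10.93, or 0.07 ± 0.15 (0.916). Its groups overlapped, with control replicate 2 the highest and control replicate 3 the lowest. Sem1, a small cap subunit whose symbol is outside the rule, gave 11.31, 11.38 and 11.53 against 11.58, 11.52 and 11.57, or 0.15 ± 0.09 (0.647). Rad23b, a shuttle that carries tagged proteins to the cap, gave 9.03, 9.39 and 8.83 against 8.76, 8.90 and 8.77, or -0.27 ± 0.16 (0.628), with control replicate 2 again the highest.

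Promoter sequences bear on this comparison because the deleted gene encodes a factor that binds DNA. RefSeq promoter windows of build GRCm38.p6, with 250 bases before and 50 after each annotated start, matched 34 of the 41 members in 37 windows. The 7 members without a window were Psma8, Psmb1, Psmb2, Psmb7, Psmc3, Psmd3 and Psmd7. A YY1 motif was searched as AANATGGC on both strands, with N any base. It was found in 6 of 37 windows (16.2%), in 6 genes, and in 6.05% of all 32851 windows of that length. The antioxidant response element, which NFE2L1 and NFE2L2 can bind, was searched as TGACNNNGC on both strands and was found in 6 windows (16.2%), against 12.4% of all, and the CCAAT box, as CCAAT on both strands, in 14 (37.8%) against 37.4%. The YY1 motif and the response element did not overlap each other in these windows. Psmb5, the catalytic subunit targeted by proteasome inhibitor drugs, held the most YY1 motif matches, and its 250 bases before the start are shown with 2 of them and the response element in capitals (chr14:54617996-54618245, minus strand, 5′ to 3′).
Psmb5: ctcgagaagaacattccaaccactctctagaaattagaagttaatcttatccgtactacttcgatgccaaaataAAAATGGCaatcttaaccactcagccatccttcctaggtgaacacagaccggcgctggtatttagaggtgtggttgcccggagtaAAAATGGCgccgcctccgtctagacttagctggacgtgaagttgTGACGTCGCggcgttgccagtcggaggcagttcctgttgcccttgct

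The YY1 motif matches nearest the start of each of the 6 genes are shown in windows of 30 bases, to let their place and strand be compared, 5′ to 3′ on the strand of the gene with the match in capitals (build GRCm38.p6).
Psma2 (chr13:14613261-14613290, plus strand): ctttccgggtaAAGATGGCagagcgcggtt
Psma4 (chr9:54950801-54950830, plus strand): cacgcgcgggaGCCATATTcgccgcggatg
Psmb5 (chr14:54617976-54618005, minus strand): tgcccttgctaAACATGGCgctggctagcg
Psmb6 (chr11:70525377-70525406, plus strand): tggcagagtagcagaggAAGATGGCggccg
Psmc5 (chr11:106256177-106256206, plus strand): ccgagagagggAAGATGGCgcttgatgggc
Psmd8 (chr7:29180662-29180691, minus strand): gacttccgttcGCCATTTTgaatgacagca

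In Psma4 and Psmd8 the match lies on the opposite strand and so reads here as its reverse complement. The letters of the motif hold an ATG, as coding sequences begin with, and whether a match after the start lies at a start codon was not tested. The 6 genes had log2 differences from -0.15 (Psma4) to 0.14 (Psmb6), with a median of 0.01, and the 28 matched members without the motif had a median of 0.05. Those 28 include Psmc3ip and Psme3ip1, which are not subunits. Psmb7, with the largest difference of the core, had no window and is in neither set. The 6 genes with the response element ran from -0.47 (Psme4) to 0.14 (Psmd9), with a median of 0.06. These are descriptions of letters in a window, without a measurement of binding.

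**Figure D5:**
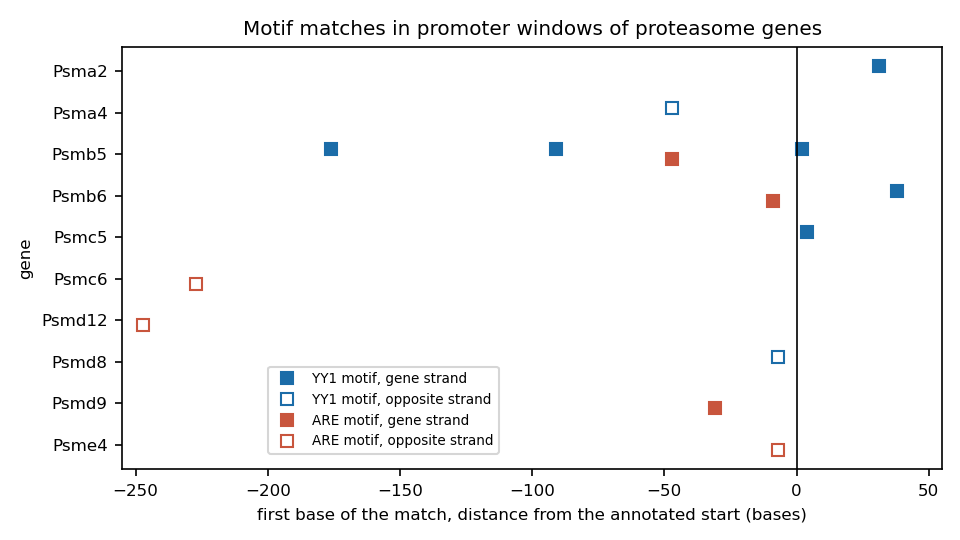
Place of the first base of each YY1 motif (blue) and antioxidant response element (red) match relative to the annotated start (horizontal axis, in bases, negative before the start) in members that hold one (rows), filled on the gene's strand and open on the opposite one. Psmb5 holds 3 YY1 motif matches and 1 response element, and Psmb6 holds 1 of each.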

How the data were processed

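Biotin-labelled RNA of 6 samples was hybridised to Affymetrix mouse arrays, per the labels' protocols. The authors deposited 1 intensity per probe set and array, made with RMA per the submitters' processing notes. No source used here names the RMA version, and the values themselves show a linear scale. RMA aligns the distributions of arrays, so a change of total RNA cannot appear. Arrays had median intensities from 123 to 130.

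Of 22690 probe sets, 20393 carried 1 gene in the platform annotation. Values were taken as log2(intensity + 1), with a pseudocount of 1, reduced to 1 probe set per gene and fitted across all 12394 genes by limma's lmFit and eBayes (version 3.58.1, R version 4.3.3, 6.11 total degrees of freedom, 2-sided, threshold 0.05), without a filter on dim probe sets. The step was tested on simulated data with independent noise and large added differences, without shifts shared by genes of an array. That test does not show how well differences of the size seen in the members would be recovered. Medians and counts of members carry no test of their own.

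Members, gene lists and tests were chosen with earlier results of these data known. Values in each array were given for up to 4 members of each role with the smallest p, for the largest rise and fall of core and cap, for the catalytic subunits, and outside the rule for Yy1, Ucp1, Nfe2l1, Psmb8, Psmb9, Psmb10 and the 4 pathway genes with the smallest p. Promoter windows are RefSeq's. Marker lists of T cells, macrophages, endothelium, dividing cells and thermogenic adipocytes had medians of -0.42, -0.04, 0.32, -0.83 and 1.86. Alternatives were 2 normalizations, a pseudocount of 16, removal of genes under the 25th or 50th percentile, averaging a gene's probe sets, an intensity trend, robust moderation, weights per array, a block on replicate number, each array left out, the cap with its chaperones, and control replicate 2 with YY1bKO replicate 1 left out, the last chosen after seeing the data.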

Additional observations from a re-analysis of the deposited data

How the results depend on the processing

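No proteasome member passed the adjusted threshold under any of the 17 alternatives tried. The smallest adjusted p of a member ran from 0.294 without control replicate 1 to 0.979 without YY1bKO replicate 3 (limma). The 0.294 was that of Psme3ip1, which is not a subunit, and the lowest of any other member was 0.308, for Psme3 (limma). The count of core members higher at an unadjusted p under 0.05 was 0, and became 1 with array weights (Psmb7), where 10.3% of all genes were higher, and ran from 0 to 2 when single arrays were left out. The same count of the cap was 0, and became 1 with array weights (Psmc1) and ran from 0 to 1 when single arrays were left out, where 4.55% to 13.2% of all genes were higher. Single settings also brought Psme3 (pseudocount 16) and Psmf1 (mean of probe sets) under an unadjusted p of 0.05. Each was 1 of 41 members, where 9.05% and 8.37% of all genes were higher under these settings. The cause was not tested. Medians ran from -0.04 to 0.11 for the core and from -0.05 to 0.12 for the cap, the highest with control replicate 2 and YY1bKO replicate 1 both left out, so their sign is not settled. Much of the spread they are read against comes from control replicate 2. Without it the medians were 0.10 in both, and without control replicate 3 they were -0.01 and -0.05. In the members' averages these arrays were the highest and the lowest, so the direction in which each omission moves the medians was set beforehand. The largest number of members whose difference changed sign was 9 of 41, without control replicate 2. The counts of all genes past the adjusted threshold were 9 with a pseudocount of 16 or array weights, 12 with robust moderation and 1 with the replicate block, beside 4.

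The labels state no pairing of the arrays. Deviations of arrays of equal replicate number correlated at 0.61, 0.10 and 0.03 across genes. Arrays of unlike number were not compared, so these values cannot tell whether the numbers pair the arrays. With the replicate block the core median was 0.01 and the cap median 0.05, and 0 members passed an unadjusted p of 0.05. With 3 arrays per group, differences well above 0.5 log2 units could also miss the adjusted threshold. Among the thermogenic markers, Elovl3 (2.15 ± 0.22, adjusted p = 0.0539, limma) and Cox7a1 (2.39 ± 0.29, adjusted p = 0.101, limma) did so. The limit of 0.5 log2 units describes the width of intervals and not what the test could detect.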
